A study of Homo sapiens with 24 samples.

Results

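This account concerns 8 genes of cholesterol synthesis and its feedback control that are targets of the transcription factor SREBP2: HMGCS1, IDI1, FDFT1, SQLE, MSMO1, SC5D, DHCR7 and INSIG1. They were chosen by name from the 54583 genes of the count table, and all 8 passed the filter that left 12058 genes for testing. PANC-1 is an established human line of pancreatic ductal carcinoma, and a single line serves here as the model. These cells, seeded in plates, were exposed for 6 h to DMSO as vehicle, to 40 µM CID661578 or to 5 µM cercosporamide. Cercosporamide inhibits the activity of MNK2, a kinase that phosphorylates the cap-binding translation factor eIF4E, and in part that of MNK1 and JAK3. In PANC-1 cells the study nevertheless saw more phosphorylated eIF4E after either compound, each at 40 µM. CID661578 is not taken by the study as an inhibitor of that activity, but as a compound that keeps MNK2 off the scaffold factor eIF4G. Each treatment had 4 replicates. Each of the 12 combinations of treatment and replicate is called a plate here, although the labels name no plates. From each, total cytosolic RNA and the RNA bound by more than 3 ribosomes (polysome RNA) were sequenced, which gave 24 libraries. The sample descriptions name RPMI as the medium, and the methods of the study name DMEM.

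Cholesterol is built from acetyl-CoA through the mevalonate pathway, which ends in isoprenoid units, and then through squalene and a series of sterol intermediates. When sterols in the membrane of the endoplasmic reticulum run low, the escort protein SCAP carries the precursor of SREBP2 to the Golgi, where proteases release the active factor, which then raises transcription of most enzymes of the pathway. When sterols are abundant, INSIG proteins hold SCAP and the precursor in the endoplasmic reticulum, and INSIG1 is itself an SREBP target. Protein output also depends on how well each mRNA is loaded with ribosomes. Here that is followed as translational efficiency (TE), the amount of a gene's polysome RNA relative to its total RNA.

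The members fall along this route. HMGCS1 (chr5:43287470-43313412, GRCh38.p14) makes HMG-CoA early in the mevalonate pathway. IDI1 (chr10:1039152-1056704) interconverts the isoprenoid building blocks. FDFT1 makes squalene, and SQLE oxidizes it in the first oxygen-requiring step. MSMO1 (chr4:165327669-165343164) helps to remove methyl groups from sterol intermediates, SC5D (chr11:121292771-121313410) adds a double bond to the sterol ring, and DHCR7 (chr11:71427287-71449043) catalyses a final step to cholesterol. INSIG1 (chr7:155297878-155310235) is the feedback protein.

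SREBPs bind sterol regulatory elements in promoters. The letters CACNCCAC, the core of such an element, were searched on both strands in the RefSeq promoter windows of GRCh38.p14, from 250 bases before to 50 bases after each start. These letters were chosen after a longer form had given no match in the members, so their share in the members cannot be read as enrichment. Windows were found for 6 of the 8 members (11 windows), and 4 of these 11, from 3 members, held the core, against 5.87% of all 35116 windows. Windows of the same gene can overlap, and the SC5D windows with the core held the same site. The sites of all 3 members are shown. IDI1 and SC5D rose in TE with cercosporamide, as described below, whereas INSIG1 was not called. A link between these letters and TE was not tested. Each sequence is in the direction of the gene, with the core, which lies on the opposite strand, in capitals.
INSIG1 (chr7:155297660-155297687, plus strand): cgggccggcgGTGGCGTGtgcgcacgtc
IDI1 (chr10:1048984-1049011, minus strand): gccgggcgatGTGGCGTGgactggcgct
SC5D (chr11:121292774-121292801, plus strand): ttgcagagcaGTGGCGTGcggagcggcg
The letters CCAAT occurred in 8 of the 11 windows of the members, against 34.6% of all windows. A match describes the sequence and does not show that a factor binds there.

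Depth was between 9268041 and 12184749 reads on genes, except for the polysome library of replicate 4 with cercosporamide, which held 1592459 reads. For the members, counts per library ran from 14 for INSIG1 in that shallow library to 5587 for DHCR7. Levels are given as CPM, the reads of a gene scaled to the normalized size of its library. Of 6 markers of duct and simple epithelium, 5 were at 1 CPM or more in DMSO total RNA, with summed levels of 9289 to 11622 CPM for the list, and 1 was at 0. The acinar, endocrine and endothelial lists had no marker at 1 CPM. Of the immune list only CD68 reached 1 CPM, with a mean of 543 CPM, and PTPRC and CD3E were at 0. In the fibroblast list, COL1A1 and COL3A1 were at 2.49 and 3.96 CPM and DCN was at 0.

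The starting levels of the 8 mRNAs spread widely. Levels between genes are given as CPM divided by the length of the transcript in kb. In DMSO total RNA, DHCR7 stood highest with 76.6 ± 19.6 CPM per kb (SD, n = 4). FDFT1 followed with 46.4 ± 7.15, MSMO1 with 39.9 ± 10.4 and SQLE with 31.1 ± 7.81 CPM per kb. IDI1 had 15.3 ± 5.09 and SC5D 9.13 ± 1.32 CPM per kb. From DHCR7 down to SC5D, the 4 libraries of each gene overlapped in range with those of the next gene in the order. INSIG1 at 4.19 ± 2.37 CPM per kb lay below all SC5D values, and HMGCS1 at 0.763 ± 0.337 lay below all INSIG1 values. HMGCS1 was thus the least abundant of the 8 mRNAs per unit of length, and its counts per library were between 20 and 142.

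**Figure D1:**
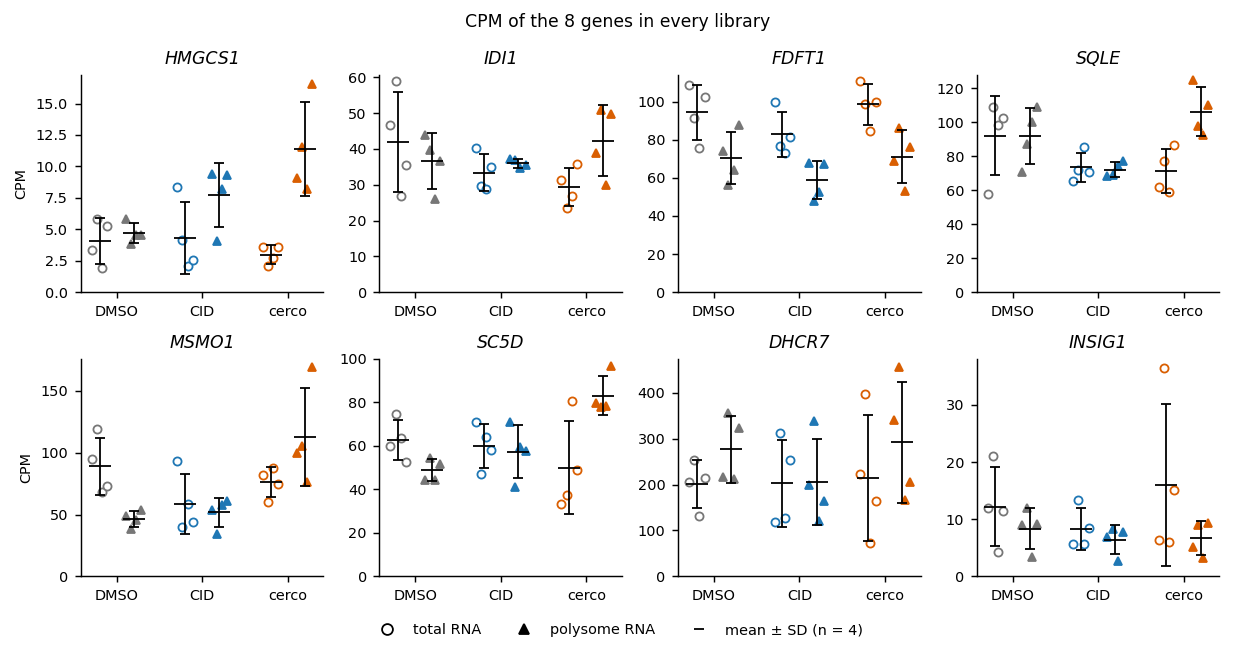
CPM (vertical axis, from 0) of each of the 8 genes in every library by treatment (CID, CID661578; cerco, cercosporamide), with open circles for total RNA, filled triangles for polysome RNA and black bars for the mean ± SD of 4 replicates. The polysome triangles of HMGCS1, MSMO1 and SC5D with cercosporamide lie above all their DMSO triangles, and the INSIG1 total RNA circle at 36.4 CPM is that of replicate 2 with cercosporamide.

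The members were already loaded with ribosomes to different degrees in DMSO. In the fit of all libraries with edgeR's quasi-likelihood test and Benjamini-Hochberg adjustment over all 12058 genes, a gene was called where the adjusted p was under 0.15 and the fold over 1.2, the thresholds that the study set for translation. Of the 8 members, 1 was called higher in polysome than in total RNA and 4 lower, where 26.4% of all genes tested were higher and 29.6% lower. MSMO1 was the least loaded, with log2 polysome/total of -0.96, -1.63, -0.60 and -0.44 in the 4 DMSO plates. All 4 values were below 0, and the fitted difference was -0.91 (SE 0.197, adjusted p = 0.000635). FDFT1 was also lower in polysome RNA, at -0.43 (SE 0.163, adjusted p = 0.0370), and its value without replicate 2 was -0.33 (adjusted p = 0.183). INSIG1 at -0.48 (SE 0.253, adjusted p = 0.128) and SC5D at -0.36 (SE 0.178, adjusted p = 0.110) passed narrowly, and neither passed without any 1 of the replicates. DHCR7 was higher in polysome RNA, at 0.47 (SE 0.192, adjusted p = 0.0522), with plate values of 0.08, 0.49, 0.71 and 0.58, all above 0. HMGCS1 at 0.29, IDI1 at -0.16 and SQLE at 0.02 were not called.

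Total RNA of the members was compared first between each compound and DMSO, since a transcriptional response of SREBP2 would appear there. With CID661578 all 8 differences were below 0, from -0.66 to -0.02 on the log2 scale with a median of -0.25, and none was called at an adjusted p below 0.15 (edgeR). Over all genes, 5647 of 12058 differences were above 0, and the median was -0.0252. The 8 values come from the same libraries, so their common sign is not 8 separate results. Of all genes tested, 0.307% were called higher and 0.166% lower. With cercosporamide the differences ran from -0.53 to 0.17 with a median of -0.33, and again none was called, where 0.0498% of all genes were higher and 0.0332% lower. The median over all genes was -0.0512. DESeq2 also called 0 members with either compound. Of all genes it called 0.838% higher and 0.498% lower with CID661578, and 2.22% and 1.06% with cercosporamide. At an unadjusted p below 0.05, edgeR found 452 of the 12058 genes lower with CID661578 and 705 with cercosporamide. Of the members, 1 was lower with each compound at that level. This was MSMO1 with CID661578, at -0.66 (SE 0.247, adjusted p = 0.576; called with a correction for GC content of transcripts, at -0.69, adjusted p = 0.0488), and IDI1 with cercosporamide, at -0.53 (SE 0.243, adjusted p = 0.424). In a bulk lysate, fewer cells and less RNA per cell cannot be told apart, and the values are relative to all RNA of a library.

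MSMO1 total RNA had 94.7, 119, 68.4 and 73.3 CPM in DMSO and 93.3, 39.9, 58.2 and 44 CPM with CID661578. The groups overlapped through replicate 1, and the value with CID661578 was the lower one in each of the 4 replicates. IDI1 total RNA had 46.6, 59.0, 26.8 and 35.6 CPM in DMSO and 31.3, 23.5, 27.0 and 35.7 CPM with cercosporamide. It was higher with cercosporamide in replicates 3 and 4 by under 1 CPM, so that replicates 1 and 2 carried the difference. No member had total RNA values all above or all below DMSO for either compound, where 0.713% of all genes were above and 1.29% below with CID661578 and 2.36% and 2.07% with cercosporamide.

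Polysome RNA of 3 of the 8 members rose with cercosporamide and of none fell, where 17.1% of all genes were called higher and 16% lower (edgeR, adjusted p below 0.15). MSMO1 had 48.5, 38.6, 45.2 and 54.1 CPM in the DMSO polysomes. With cercosporamide it had 99.6, 106, 76.5 and 169 CPM. All 4 cercosporamide values were above all DMSO values, and the log2 change was 1.21 (SE 0.199, adjusted p = 0.000244), a rise of 2.31-fold. The highest value is from the shallow library, and without that plate the change was 1.09 (adjusted p = 0.000846).

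HMGCS1 had 5.85, 3.86, 4.57 and 4.56 CPM in the DMSO polysomes and 9.08, 11.6, 8.24 and 16.6 CPM with cercosporamide. The groups did not overlap, although the last value rests on 25 reads of the shallow library. The log2 change was 1.196 (SE 0.283, adjusted p = 0.00546), or 2.29-fold. SC5D had 44.5, 54.3, 44.4 and 51.7 CPM in the DMSO polysomes and 79.5, 77.9, 78.2 and 96.7 CPM with cercosporamide. Here too the groups were apart, and the log2 change was 0.72 (SE 0.186, adjusted p = 0.00956), or 1.65-fold. With a correction of each library for the GC content of transcripts, the SC5D change was 0.17 (adjusted p = 0.535) and was no longer called. Polysome groups lying wholly above DMSO were found for these 3 members, against 8.43% of all genes, and none lay wholly below, against 5.73%.

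The other 5 members did not change in polysome RNA with cercosporamide by the test. SQLE stood at 0.19 (SE 0.176, adjusted p = 0.481) and IDI1 at 0.16 (SE 0.187, adjusted p = 0.586), and the remaining 3 between -0.39 and -0.01. With CID661578 no member was called in polysome RNA, where 6.34% of all genes were higher and 3.93% lower. At an unadjusted p below 0.05, edgeR found HMGCS1 higher, at 0.69 (SE 0.276, adjusted p = 0.172), and DHCR7 lower, at -0.52 (SE 0.199, adjusted p = 0.156). At that level 1303 of the 12058 genes were higher and 1032 lower. HMGCS1 had 9.38, 4.04, 8.22 and 9.35 CPM in the CID661578 polysomes and DHCR7 had 200, 339, 121 and 165 CPM, and both groups overlapped with DMSO. Without replicate 2 both were called, HMGCS1 at 0.85 and DHCR7 at -0.67 (adjusted p = 0.140 for each). That fit called 4.95% of all genes higher and 3.79% lower. The groups of the other 6 members overlapped with DMSO too, where 3.83% of all genes lay wholly above DMSO and 2.92% wholly below. DESeq2 called 1 member higher and 1 lower in this comparison, where it called 7.17% of all genes higher and 5.22% lower.

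**Figure D2:**
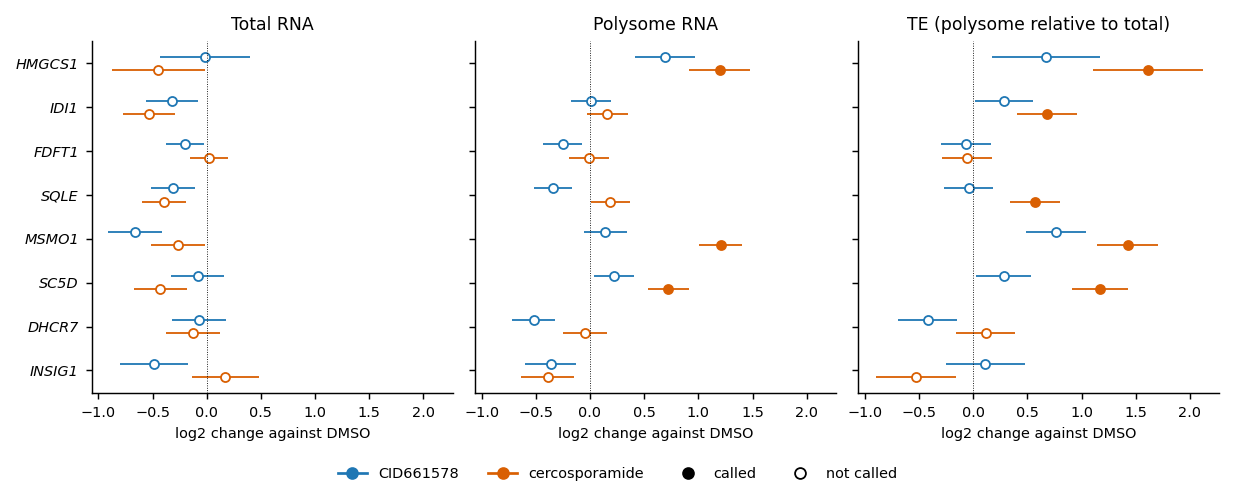
Log2 change against DMSO (horizontal axis) of the 8 genes (rows) in total RNA, polysome RNA and TE, with bars for the standard error and filled points for calls by edgeR. No point is filled for total RNA, 3 cercosporamide points are filled for polysome RNA and 5 for TE, and no CID661578 point is filled.

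TE is the comparison of both fractions within a plate, so it can rise through more polysome RNA or through less total RNA. With cercosporamide, 5 of the 8 members rose in TE and none fell, where 15.8% of all genes tested were called higher and 12.6% lower (edgeR, adjusted p below 0.15 and over 1.2-fold). The median TE change of the 8 members was 0.62 on the log2 scale, and over all genes it was -0.000503. The 5 genes were HMGCS1 and IDI1 of the mevalonate part, SQLE of the squalene part, and MSMO1 and SC5D of the sterol part. FDFT1, DHCR7 and INSIG1 were not called. The 5 genes were called from these same plates, so the signs of their single replicates are no added support. The difference between the treated and the DMSO plate of the same replicate was above 0 in 4 of 4 replicates for each gene called. Over all 8 members, the median of these differences was 0.521, 1.09, 0.377 and 0.346 in replicates 1 to 4.

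MSMO1 had the lowest adjusted p of the 8. Its log2 polysome/total was 0.28, 0.80, -0.20 and 1.18 in the cercosporamide plates, against -0.96, -1.63, -0.60 and -0.44 with DMSO. The lowest cercosporamide plate was still above the highest DMSO plate. The TE change was 1.42 (SE 0.278, adjusted p = 0.00141), or 2.68-fold, and its CPM was higher in polysome than in total RNA in 3 of 4 treated plates and in 0 of 4 DMSO plates. Leaving out each replicate gave 1.08 to 1.74, and the call held in each of these fits and in all 16 alternative analyses.

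SC5D, the other late sterol enzyme of this group, had log2 polysome/total of 1.26, 1.06, -0.04 and 0.98 with cercosporamide. In DMSO it had -0.43, -0.45, -0.51 and -0.03. Replicate 3 with cercosporamide lay just below DMSO replicate 4, so the groups overlapped by 1 plate. The TE change was 1.17 (SE 0.255, adjusted p = 0.00313), or 2.25-fold, and its call also held in all 16 alternatives. HMGCS1 had 1.31, 2.42, 1.58 and 2.18 with cercosporamide and 0.80, -0.58, 1.22 and -0.21 with DMSO. The groups were apart, but the DMSO plates spread over a wide range. The TE change of HMGCS1 was 1.61 (SE 0.507, adjusted p = 0.0310), or 3.06-fold, and without replicate 2 it was 1.12 (adjusted p = 0.260) and not called.

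IDI1 and SQLE passed with smaller changes. IDI1 had log2 polysome/total of 0.31, 1.11, 0.15 and 0.48 with cercosporamide and -0.08, -0.57, -0.05 and 0.05 with DMSO. SQLE had 1.00, 0.34, 0.65 and 0.35 with cercosporamide and 0.29, -0.33, 0.03 and 0.08 with DMSO. In both genes all treated plates were above all DMSO plates. The TE change was 0.68 for IDI1 (SE 0.275, adjusted p = 0.0925) and 0.57 for SQLE (SE 0.228, adjusted p = 0.0908). For both, the difference in total RNA (-0.53 and -0.39, not called) was larger in size than that in polysome RNA, whereas for HMGCS1, MSMO1 and SC5D the change in polysome RNA was the larger. The study keeps buffering, where total RNA changes and polysome RNA does not, apart from altered translation. It predicts no change in protein from buffering. Sorted by the larger difference, 3 of the members called were of the translation kind, and IDI1 and SQLE were of the buffered kind. IDI1 was not called when replicate 2 was left out, at 0.34 (adjusted p = 0.575), or replicate 4, at 0.72 (adjusted p = 0.153). SQLE was not called in 3 such fits: its change was 0.52 without replicate 1 (adjusted p = 0.249), 0.54 without replicate 2 (adjusted p = 0.280) and 0.52 without replicate 3 (adjusted p = 0.198).

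Treated and DMSO plates were apart in log2 polysome/total for 4 members, HMGCS1, IDI1, SQLE and MSMO1, all of them above DMSO, against 10.9% of all genes above and 7.96% below. The 3 members without a call differed among themselves. FDFT1, squalene synthase, had a TE change of -0.06 (SE 0.232, adjusted p = 0.897), with plates between -0.69 and -0.20 with cercosporamide. DHCR7 had 0.11 (SE 0.272, adjusted p = 0.817). INSIG1 had -0.53 (SE 0.369, adjusted p = 0.351), and its replicate 2 with cercosporamide stood at -2.01, with 36.4 CPM in total RNA and 8.97 CPM in polysome RNA. The INSIG1 change was below 0, as was that of the enzyme FDFT1, and it was not larger than the spread between replicates. In replicate 1 the INSIG1 plate with cercosporamide was above that with DMSO by 0.12, and without replicate 2 the change was -0.26.

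**Figure D3:**
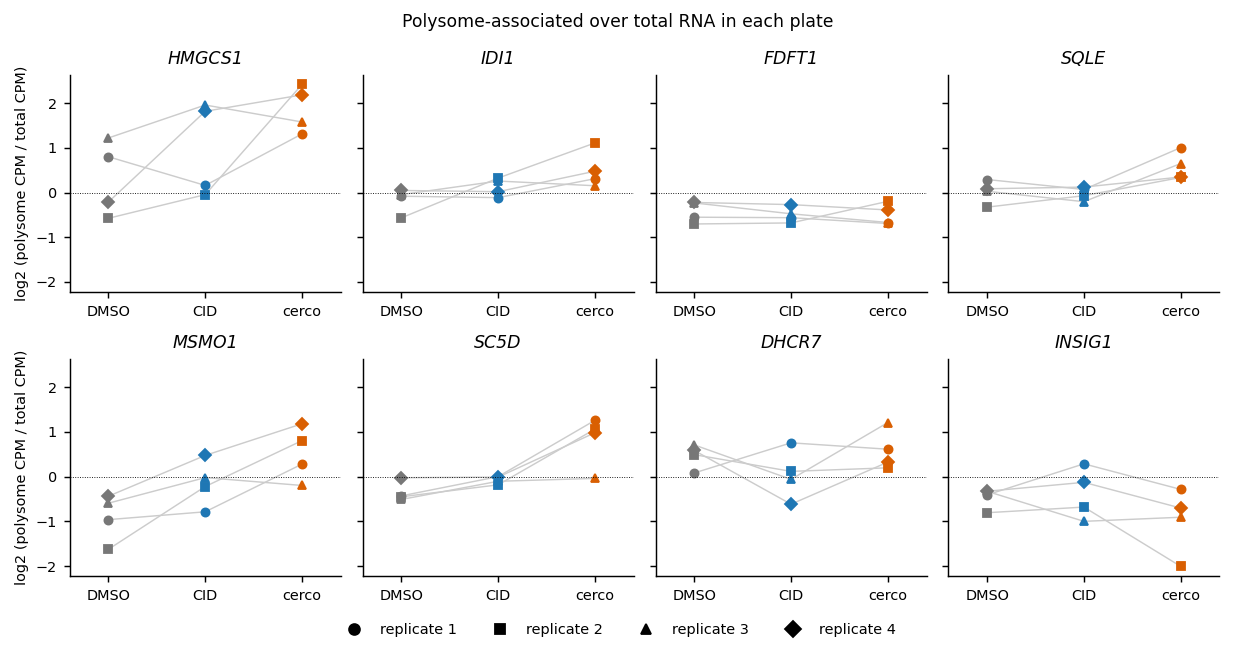
Log2 of polysome CPM over total CPM (vertical axis) of the 8 genes in each of the 12 plates, with a symbol for each replicate and grey lines between plates of the same replicate number. All cercosporamide plates of HMGCS1, IDI1, SQLE and MSMO1 lie above all their DMSO plates, and the CID661578 plates overlap with DMSO in every gene.

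With CID661578 no member was called in TE, where 0.00829% of all genes were called higher and 0.199% lower. DESeq2 called none either, where it called 0.199% of all genes higher and 0.249% lower. At an unadjusted p below 0.05 edgeR found 593 of the 12058 genes higher, among them 1 member, MSMO1. It had log2 polysome/total of -0.79, -0.22, -0.02 and 0.47 with CID661578, which overlapped with DMSO and was above the DMSO plate of the same number in 4 of 4 replicates. The TE difference was 0.77 (SE 0.277, adjusted p = 0.489). HMGCS1 stood at 0.67 (SE 0.495, adjusted p = 0.692) and SC5D at 0.28 (SE 0.252, adjusted p = 0.745), with SC5D also above DMSO in 4 of 4 replicates. The share of all genes above DMSO in 4 of 4 replicates was not counted. IDI1 stood at 0.28, INSIG1 at 0.11, SQLE at -0.04, FDFT1 at -0.07 and DHCR7 at -0.42, all with adjusted p of 0.651 or more. The median over the 8 members was 0.20, and over all genes 0.0315. The plates overlapped with DMSO in all 8 members, where 2.76% of all genes lay wholly above DMSO and 1.71% wholly below. The standard errors were between 0.227 and 0.495, and these values do not show that TE of the members was unaltered with CID661578. The study, with anota2seq, reported more mRNAs of altered translation shared by both compounds than the edgeR model called here with CID661578. The reason for this gap was not tested.

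The compounds were also compared directly, at the doses given, which differ. TE with CID661578 was lower than with cercosporamide for 2 of the 8 members and higher for none, where 7.57% of all genes were lower and 7.93% higher. SC5D differed by -0.89 (SE 0.254, adjusted p = 0.0388) and SQLE by -0.61 (SE 0.229, adjusted p = 0.113). Without replicate 1 the SC5D difference was -0.76 (adjusted p = 0.201) and without replicate 2 it was -0.77 (adjusted p = 0.250), and neither passed. SQLE did not pass either without replicate 1 (difference -0.50, adjusted p = 0.395), without replicate 2 (difference -0.68, adjusted p = 0.267) or without replicate 3 (difference -0.53, adjusted p = 0.258), and without the replicate block it stood at -0.61 (adjusted p = 0.156). For MSMO1 (-0.66, SE 0.277, adjusted p = 0.158), HMGCS1 (-0.94, SE 0.503, adjusted p = 0.283) and IDI1 (-0.39, SE 0.274, adjusted p = 0.436), a difference between the compounds was not shown, although that of MSMO1 passed without replicate 3, at -0.94 (adjusted p = 0.0665). Both compounds were set against the same DMSO plates.

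The other genes of the pathway were taken from lists of its enzymes and regulators, which here held 54 genes, of which 50 were tested. With cercosporamide, 7 of the 50 were called higher in TE, or 14.0%, and 2 lower, where 15.8% and 12.6% of all genes were called. Of the 5 mevalonate enzymes compared, PMVK, which phosphorylates mevalonate phosphate, stood lowest at -0.53 (SE 0.256, adjusted p = 0.162) and FDPS, farnesyl diphosphate synthase, highest at 0.27 (SE 0.252, adjusted p = 0.501), with a median of -0.32. Among 8 other sterol enzymes, LBR, a sterol reductase that is also the lamin B receptor, rose by 1.32 (SE 0.246, adjusted p = 0.000942) and CYP51A1, a sterol demethylase, by 0.78 (SE 0.233, adjusted p = 0.0231), with a median of -0.11. CYP51A1 was not called with GC correction, at 0.36 (adjusted p = 0.275), by partial variance, in which polysome RNA is regressed on total RNA, at 0.60 (adjusted p = 0.190), or without replicate block and plate terms, at 0.78 (adjusted p = 0.204).

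Of the regulators, 1 was called in TE with cercosporamide. SREBF2, which encodes SREBP2, stood at -1.07 (SE 0.768, adjusted p = 0.369), SCAP at -0.40 (SE 0.410, adjusted p = 0.545) and INSIG2 at 0.74 (SE 0.359, adjusted p = 0.167). SREBF1, the gene of SREBP1, stood at 0.53 (SE 0.439, adjusted p = 0.446). These values moved with single replicates. SREBF2 was called without replicate 1, at -2.33 (adjusted p = 0.0473), and stood between -0.87 and -0.62 without any 1 of the others. SCAP was called without replicate 3, at -1.09 (adjusted p = 0.0681), and INSIG2 without replicate 1, at 1.14 (adjusted p = 0.0740). By partial variance INSIG2 (0.71, adjusted p = 0.132) and SREBF1 (0.58, adjusted p = 0.133) were called, as was SREBF1 with GC correction (1.00, adjusted p = 0.0726). Of the 10 regulators MBTPS1 alone, the protease of the first cut of SREBP, passed with all libraries, at -0.78 (SE 0.311, adjusted p = 0.0891), but it missed the threshold without the replicate block, at -0.75 (adjusted p = 0.156), without replicate 2, at -0.69 (adjusted p = 0.309), or without replicate 4, at -0.44 (adjusted p = 0.397). With CID661578, INSIG2 rose in polysome RNA by 1.63 (SE 0.257, adjusted p = 0.000634), and SCAP fell by 0.59 (SE 0.208, adjusted p = 0.117), the 2 regulators of 10 called there. The INSIG2 call held in all 14 alternatives. That of SCAP was lost without replicate 1, 3 or 4 (-0.64 to -0.42, adjusted p = 0.254 to 0.426), without the replicate block (-0.43, adjusted p = 0.771) and with GC correction (-0.28, adjusted p = 0.566).

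Genes of sterol uptake and storage included single calls in TE with cercosporamide. Of 6 uptake and transport genes tested, 1 was called, LIPA, the lysosomal acid lipase, which rose by 1.00 (SE 0.260, adjusted p = 0.0103). SOAT1, which esterifies cholesterol, rose by 1.14 (SE 0.237, adjusted p = 0.00220), a call that held in all 16 alternatives. NR1H3, the gene of LXRα, fell by 1.24 (SE 0.454, adjusted p = 0.0626), but it was not called without replicate 2, at -1.28 (adjusted p = 0.201), or without replicate 4, at -0.81 (adjusted p = 0.228). Of 10 fatty acid targets of SREBP1, ME1 was called, at 1.04 (SE 0.362, adjusted p = 0.0512), but its change was 0.85 without replicate 1 (adjusted p = 0.222) and 0.67 without replicate 2 (adjusted p = 0.352), and then it was not called. In the isoprenoid branches, PGGT1B, a subunit of a prenyltransferase, rose by 1.07 (SE 0.358, adjusted p = 0.0419) and GGPS1, which makes its substrate, by 0.79 (SE 0.284, adjusted p = 0.0570). PGGT1B did not pass without replicate 2, at 1.00 (adjusted p = 0.175), nor GGPS1 without replicate 3, at 0.67 (adjusted p = 0.184), or without replicate 4, at 0.68 (adjusted p = 0.190). With GC correction neither passed, PGGT1B at 0.33 (adjusted p = 0.574) and GGPS1 at 0.33 (adjusted p = 0.456). Without replicate block and plate terms, the calls of LIPA, NR1H3, ME1, PGGT1B, GGPS1 and MBTPS1 were lost as well, with adjusted p between 0.237 and 0.343.

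**Figure D4:**
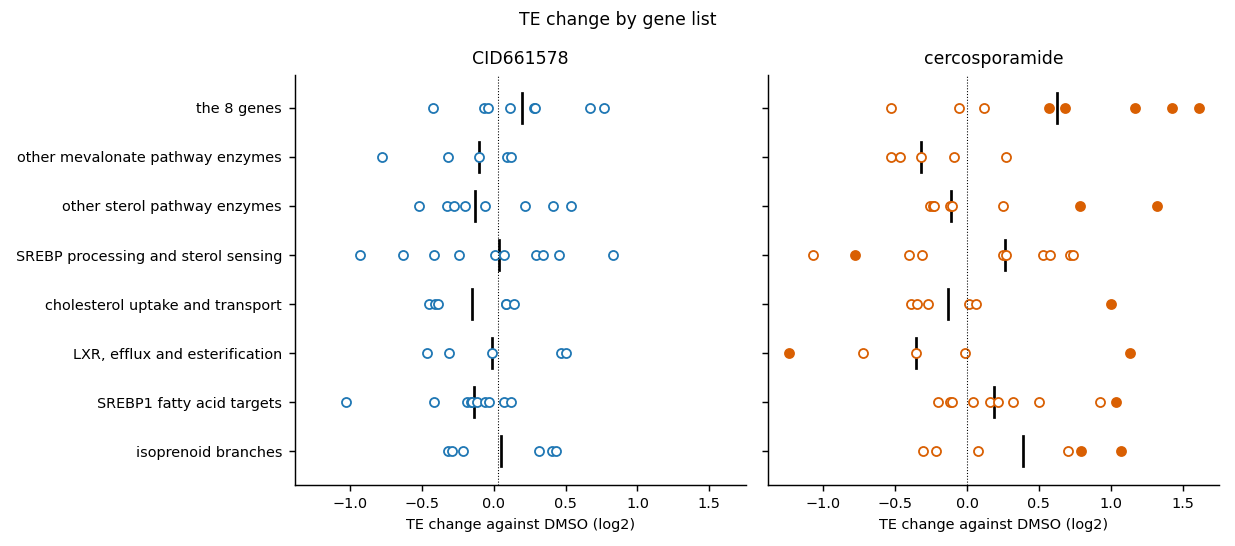
TE change against DMSO (horizontal axis, log2) for each gene of the 8 lists (rows) with CID661578 (left) and cercosporamide (right), with filled points for calls by edgeR, black bars for the list median and a dotted line for the median of all genes. The 8 members have 5 filled points and a median of 0.62 with cercosporamide, and no gene of any list is filled with CID661578.

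The members differed in the features of their transcripts, which the choice by name did not use. Length ran from 2035 bases for FDFT1 to 6854 for SC5D, and GC content of the 5′ UTR from 57.1% for HMGCS1 to 77.1% for INSIG1. GC content of the whole transcript was 36.9% for SC5D, 37.4% for MSMO1, 37.9% for IDI1 and 39.0% for HMGCS1, all in the lowest of 4 groups of tested genes of equal size by GC content. INSIG1 with 44.8%, FDFT1 with 46.5% and SQLE with 46.5% were in the second group, and DHCR7 with 58.1% was in the highest. TE with cercosporamide moved with GC content over all genes. In the lowest group 42.2% of genes were called higher with a median TE change of 0.65, and in the following groups 18.3%, 3.46% and 1% were called higher with medians of 0.20, -0.22 and -0.35. IDI1 at 0.68 lay close to the median of its group, and HMGCS1, MSMO1 and SC5D, at 1.61, 1.42 and 1.17, lay above it.

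When each library was corrected for its trend on GC content, 5 members were again called higher in TE with cercosporamide, against 11.7% of all genes, but the 5 were not the same. MSMO1 stood at 0.80 (adjusted p = 0.0220), HMGCS1 at 1.05 (adjusted p = 0.137), SC5D at 0.52 (adjusted p = 0.146) and SQLE at 0.60 (adjusted p = 0.0622). IDI1 was no longer called, at 0.07 (adjusted p = 0.893), and DHCR7 came in, at 0.51 (adjusted p = 0.118). Of the other pathway genes named as called, LBR (0.72), SOAT1 (0.61) and LIPA (0.51) kept their calls, and ME1 (0.51, adjusted p = 0.333), NR1H3 (-0.81, adjusted p = 0.196) and MBTPS1 (-0.48, adjusted p = 0.305) lost theirs, as CYP51A1, PGGT1B and GGPS1 did. The part of GC content in the uncorrected changes was not tested.

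**Figure D5:**
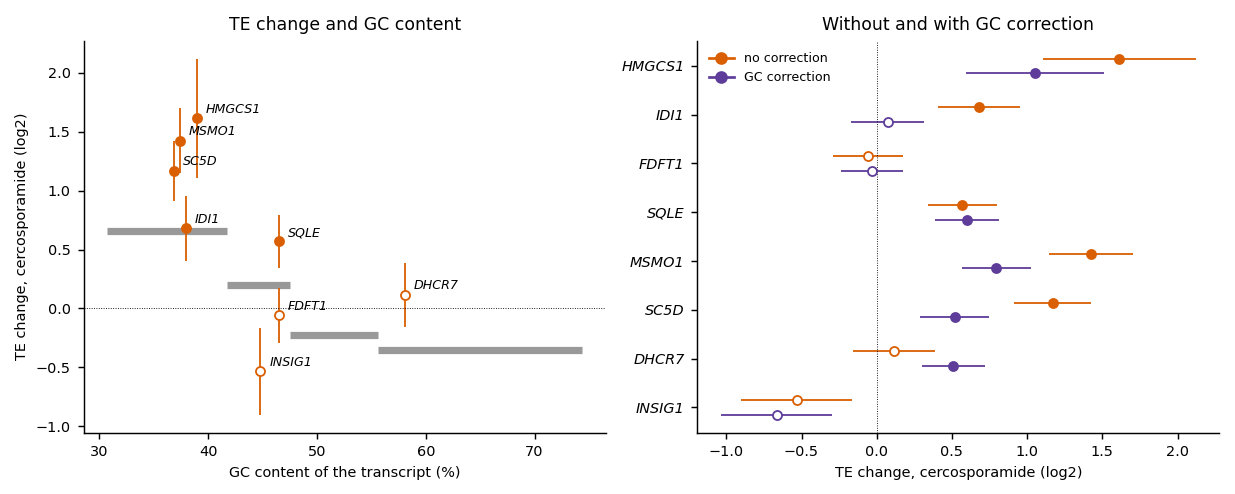
Left, TE change with cercosporamide (vertical axis, log2, bars for the standard error) of the 8 genes against the GC content of their transcripts, with grey bars for the median of all genes in each of 4 groups by GC content. Right, the TE change of each gene without and with correction for GC content, with filled points for calls: IDI1 moves from 0.68 to 0.07 and MSMO1 from 1.42 to 0.80.

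Across the 12 plates, the 8 members did not move as a block. Pearson's r between pairs of members in log2 polysome/total had a median of 0.222 over 28 pairs, with a range of -0.655 to 0.822 and 17 pairs above 0. In total RNA the median was 0.176, from -0.657 to 0.747. Against the mean of the other 7 members, MSMO1 had r = 0.814 and SC5D r = 0.747 in log2 polysome/total, and INSIG1 had r = -0.430. Among the 5 genes whose log2 polysome/total was most like the mean of the members, of 7896 genes compared, were CCT2 (r = 0.978), RRN3 (r = 0.974), RBMX (r = 0.968) and NOL11 (r = 0.964). In total RNA the 5 were SGO2 (r = 0.896), ALCAM (r = 0.894), RBBP6 (r = 0.880), NPTN (r = 0.868) and HSPH1 (r = 0.855). The 8 members themselves were left out of these comparisons, and none of those named is another enzyme of the cholesterol pathway. All these values are descriptions over plates that share treatments, replicate numbers and libraries.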

How the data were processed

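The sample descriptions gave treatment, fraction and replicate of every library. The authors prepared Smart-seq2 libraries, filtered out rRNA reads (BBDuk), mapped to hg38 (HISAT2), counted on RefSeq genes with featureCounts in its default mode, and deposited the raw counts. This mode uses no strand and leaves out reads that overlap several genes. IDI1 overlaps WDR37 and IDI2-AS1 and has pseudogene copies (43 reads over all libraries, against 9058 on IDI1), so its counts are less certain. There was no spike-in, and the number of plates and the depth limit the precision.

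Genes with a 0 in any library were removed, and TMM-normalized counts were fitted with edgeR 4.0.16 (R 4.3.3). TE was tested with terms for each plate and for each replicate within the polysome fraction, as the study takes the replicate as batch, and each fraction with treatment and replicate terms. The model was tested on simulated data. As a check of the pairing, deviations of treated and DMSO libraries with the same replicate number correlated above 0.1 in 13 of 16 pairs (-0.0167 to 0.571). The study's anota2seq was not run, and partial variance was an alternative, as were no replicate block, DESeq2 1.42.0 or only its size factors, fits without the other compound, another scope of TMM, other filters, an adjusted p of 0.05, GC correction, and each replicate left out.

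The members and lists were chosen with earlier results of these data known. PMVK and FDPS were named as the lowest and highest of the mevalonate enzymes, which held no call, and their alternatives were not examined. By rule, the other named genes were the 8 members, SREBF2, SCAP, INSIG2 and SREBF1, up to 2 called genes with the largest TE change with cercosporamide in each other list, and the 5 genes most like the members in each measure. A few genes to which this rule or the lists applied are not reported here, and the list counts are without them. GC content came from GENCODE v44, to which 39020 symbols matched, and overlaps and promoters from RefSeq.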

Additional observations from a re-analysis of the deposited data

Results flagged for a closer look

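A single replicate stood apart from the other 3 in 3 of 72 groups of 4 values (the CPM of each member in each group, and its log2 polysome/total in each treatment), where chance gives about 1 in 20. SC5D in cercosporamide polysomes had 96.7 CPM in replicate 4, from the library with the fewest reads. INSIG1 in DMSO had a log2 polysome/total of -0.81 in replicate 2, below the others. SC5D in DMSO had a log2 polysome/total of -0.0262 in replicate 4, above the others.

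The TE changes of the compounds, relative to the same DMSO plates and at different doses, differed from each other by the test of that difference for 2 of the members. The difference between CID661578 and cercosporamide was -0.89 for SC5D (SE 0.254, edgeR adjusted p = 0.0388) and -0.61 for SQLE (SE 0.229, edgeR adjusted p = 0.113).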

How the results depend on the processing

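The calls of MSMO1 and SC5D in TE with cercosporamide held in all 16 alternatives, that of HMGCS1 in 15 and those of IDI1 and SQLE in 9 each. Percentages in brackets are the shares of all genes tested that were called in the same direction. The number of members called higher, 5 (15.8%), was 3 without replicate block and plate terms (5.15%) and with no filter (4.56%). It was 3 at an adjusted p below 0.05 (9.77%) and by partial variance (14.8%), and 2 to 4 with a replicate left out (8.6% to 13.6%). Without the cercosporamide plate of replicate 4 alone, it was 5 (13.4%). For the difference between compounds, 2 members lower (7.57%) became 1 with no replicate block (5.6%), with DESeq2 size factors (5.89%) and with filterByExpr (4.92%). The number was also 1 with no filter (1.77%) and at an adjusted p below 0.05 (2.7%). It was 0 without replicate block and plate terms (0.0332%), and 0 to 2 with a replicate left out (1.4% to 7.01%). Of polysome relative to total RNA in DMSO, 1 member higher (26.4%) became 0 without replicate block and plate terms (18.9%). It was also 0 at an adjusted p below 0.05 (19.5%) and with GC correction (27.6%), and 2 with TMM within each fraction (39.2%). The 4 members lower (29.6%) became 2 without replicate block and plate terms (23.6%), with DESeq2 size factors (28.3%) and with filterByExpr (26.2%). The number was also 2 with an adjusted p below 0.05 (23.7%) and GC correction (30.5%). It was 1 with TMM within each fraction (20.4%) and with no filter (11.3%), and 1 to 2 with a replicate left out (24% to 26.1%). In polysome RNA with CID661578, 1 member was higher and 1 lower in fits with DMSO and 1 compound (9.06% and 7.79%). The same counts came with DESeq2 (7.17% and 5.22%). With a replicate left out they were 0 to 1 each (2.11% to 4.95% higher, 1.02% to 3.79% lower). In total RNA with CID661578, 1 member was lower with GC correction (0.738%). The causes of these shifts were not tested.

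Only values without a call changed sign. In TE with CID661578, partial variance gave INSIG1 -0.25 and FDFT1 0.0101, and GC correction gave IDI1 -0.0463 and SC5D -0.0884. With a replicate left out, INSIG1 was -0.0883 to 0.30 and SQLE -0.14 to 0.0200. With cercosporamide, DHCR7 was -0.0145 without replicate block and plate terms and -0.0421 to 0.25 with a replicate left out, and FDFT1 -0.25 to 0.0401. GC correction gave SCAP 0.0595 in TE and IDI1 -0.33 in polysome RNA. SQLE polysome RNA with cercosporamide was -0.0552 to 0.30 with a replicate left out. In DMSO, SQLE polysome relative to total RNA was -0.00456 without replicate block and plate terms and -0.0703 to 0.14 with a replicate left out, and IDI1 was 0.11 with TMM within each fraction and 0.0944 with GC correction. Depth limits HMGCS1 and INSIG1 most, with 25 and 14 reads in the shallow polysome library.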
